A study of Drosophila melanogaster and Drosophila simulans and Drosophila yakuba with 72 samples.

Results

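The let-7 complex of Drosophila is a cluster of 3 microRNA (miRNA) genes, let-7, miR-100 and miR-125, whose levels were followed here on miRNA arrays at the onset of metamorphosis. A probe was counted as a member if its reporter name or its D. melanogaster name, without the species prefix, was let-7, miR-100 or miR-125 with any arm suffix. This rule took 13 of the 1339 miRNA probes on the array. Of these 13, 3 match the mature D. melanogaster guide strands and 5 match the opposite strand of the hairpin. The other 5 match guide strands of other arthropods that differ by 1 substitution, 1 of them with 1 more base. Of the 13, 9 passed the filter for testing, which took 272 probes in all, and 3 were detected in no sample.

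The study compared miRNA levels between strains, sexes and 2 developmental stages, in 72 samples on 36 arrays, each of which carried 2 samples in different dyes. Males were sampled in the Drosophila melanogaster strains Canton-S, Oregon-R, Zimbabwe-109 and Samarkand, in D. simulans (stock 14021-0251.167) and in D. yakuba (stock 14021-0261.00). Females were sampled in D. simulans, Oregon-R and Zimbabwe-109. The later stage is labelled PF, read here as puparium formation, and the earlier stage is labelled as at least 18 before it, with no unit given. The 2 stages make 18 groups of 4 biological replicates, and each strain and sex is called a set below. All animals were reared at 25 °C on corn meal medium with 0.05% bromophenol blue, a dye fed to larvae, and each replicate was a pool of 60 to 80 whole animals, about 120 mg. Each species other than D. melanogaster is represented by 1 stock, and no group carried a mutation or treatment according to the labels.

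The 3 miRNAs are cut from a shared primary transcript, and in the fly its transcription is linked to the steroid hormone ecdysone, whose pulses drive moulting and pupariation. let-7 was first described in the nematode Caenorhabditis elegans as a regulator of the larval to adult transition, and its sequence is conserved across bilaterian animals. In the fly, let-7 represses the transcription factor gene abrupt in maturing muscle and its motor neurons, and let-7 and miR-125 act on chinmo, a gene of temporal identity in neurons. miR-125 is the fly relative of lin-4, the founding heterochronic miRNA of Caenorhabditis elegans, and miR-100 belongs to a family that is conserved across animals. In the RefSeq annotation (Release 6 plus ISO1 MT), mir-100, mir-let7 and mir-125 follow each other in this order inside the host gene lncRNA:let7C on chromosome arm 2L.

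The target sequences of the 3 guide-strand probes, as the array files list them, are shown to make plain that the cluster holds 3 separate targeting specificities. The array design gives them reporter names of D. erecta and lists the D. melanogaster miRNA beside each. The capitals mark the seed, bases 2 to 8, which is the stretch a miRNA uses most to recognise its targets.
dme-let-7: uGAGGUAGuagguuguauagu
dme-miR-100: aACCCGUAaauccgaacuugug
dme-miR-125: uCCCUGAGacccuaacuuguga
The 3 seeds differ, and 0 other probes on the array, members aside, carry any of them. Outside the seed, miR-100 and miR-125 share a run of 8 bases, AACUUGUG, from base 15 of miR-100 and base 14 of miR-125. The longest run that let-7 shares with either of them is 4 bases long.

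The related guide sequences on the array come from Aedes aegypti (aae), Apis mellifera (ame), D. persimilis (dpe) and the crustacean Daphnia pulex (dpu). They are shown because each differs from the fly sequence by 1 substitution, so that they report how far a probe of nearly the same sequence gave the same values. Capitals mark the bases that differ, and positions count from 1 at the 5′ end.
aae-let-7: ugagguaguUgguuguauagu
ame-miR-125: Ccccugagacccuaacuuguga
dpe-miR-100: aacccguaaUuccgaacuugug
aae-miR-100: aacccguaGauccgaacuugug
dpu-miR-100: aacccguaGauccgaacuugugU
The substitution is A10U in aae-let-7 and in dpe-miR-100, A9G in aae-miR-100 and dpu-miR-100, and U1C in ame-miR-125. The probe for dpu-miR-100 also has 1 more base at its 3′ end. Among these, only the substitution of ame-miR-125 lies at the first base, and none of the 5 lies in the seed.

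Each array held both stages of a set and replicate, and the dyes were swapped on 2 of the 4 arrays of every set. Levels are given as normalized log2 intensity, with a background offset that compresses differences near the level of empty spots, and net intensity is the median spot value less the median of the empty spots of the same channel. The detection limit of a sample was the median of its empty spots plus 3 of their SD. Samples had from 87 to 278 detected probes, the median being 163.5 for males and 207.5 for females. The arrays lay on 7 slides, 5 with males, 2 with females and 0 with both, so sex and slide cannot be told apart. On 4 female arrays (Oregon-R replicates 1 and 2, Zimbabwe-109 replicates 3 and 4) several probes were much brighter than elsewhere, variant probes and the fly's own dme-miR-14 among them: aae-let-7 read 2490 to 9432 in net intensity at PF there, against 1.61 to 224 on the other 32 arrays. The main female results are therefore also given without these arrays. Of the muscle miRNAs, miR-1 was above background in 72 of 72 samples and miR-133 in 5 of 36 earlier and 2 of 36 PF samples, and the neuronal miR-124 was above it in 2 of 36 earlier and 11 of 36 PF samples. The samples are whole bodies, so more cells of a type and more RNA per cell cannot be told apart in any result below.

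Detection was more frequent at PF for each of the 3 miRNAs. let-7 was above background in 26 of 36 samples at the earlier stage and in 36 of 36 at PF. miR-100 was above it in 1 of 36 and then in 32 of 36, and miR-125 in 1 of 36 and then in 33 of 36. At PF the samples below the limit were Canton-S and Zimbabwe-109 males, 4 samples for miR-100 and 3 for miR-125, and all 12 female samples were above it for each of the 3 miRNAs. The probe ame-miR-125 gave the same picture as the fly's miR-125 probe, with 2 of 36 and 36 of 36 samples.

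**Figure D1:**
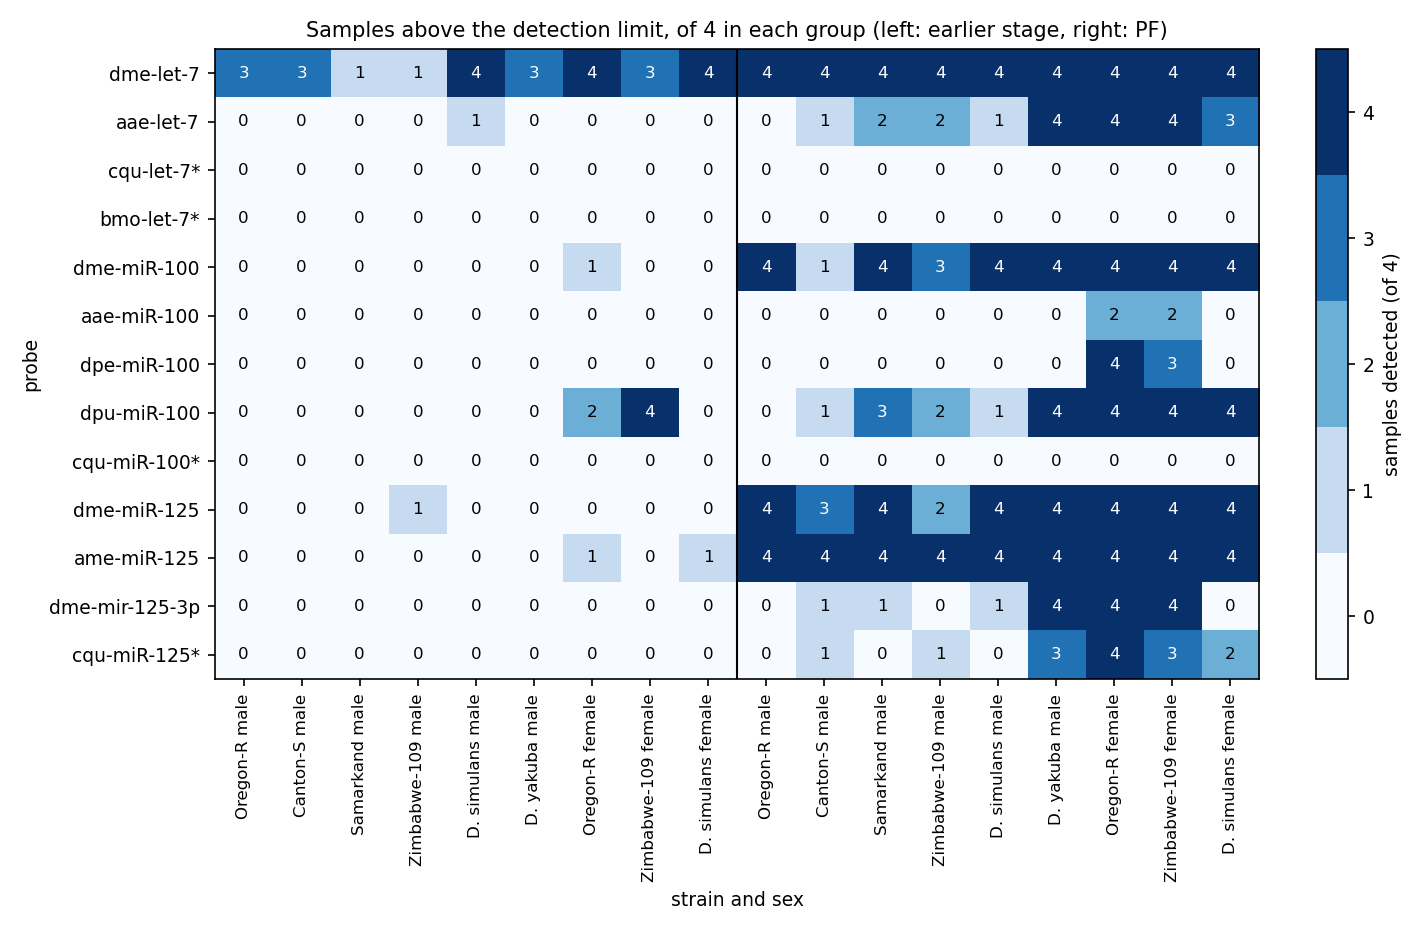
Number of samples above the detection limit, of 4 in each of the 18 groups, for the 13 member probes (rows); the left block of columns is the earlier stage and the right block PF, and darker cells hold more samples. At PF let-7 was above the limit in every group, whereas miR-100 in Canton-S males passed it in 1 of 4 samples.

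let-7 rose at PF in all 9 sets, by 4.43 to 5.39 on the log2 scale, and had the largest rise of the 272 tested probes in each of the 9. Levels are given in the order of the replicate numbers, which run from 1 to 4, or from 2 to 5 in Oregon-R males. In Oregon-R males the levels of let-7 were 7.39, 8.15, 7.30 and 7.98 at the earlier stage and 12.62, 12.03, 12.82 and 11.94 at PF. In Canton-S males they were 6.96, 7.53, 7.35 and 8.00 at the earlier stage and 12.07, 11.73, 12.11 and 11.63 at PF. In Samarkand males they were 6.76, 6.84, 7.81 and 8.92 at the earlier stage and 12.76, 12.28, 12.24 and 12.58 at PF. The stages lay far apart in these strains, with the widest spread in the earlier Samarkand samples, of which 1 of 4 was detected. In Zimbabwe-109 males the levels were 7.09, 7.04, 7.59 and 7.72 at the earlier stage and 12.57, 12.27, 12.81 and 11.64 at PF. In D. simulans males they were 7.51, 7.24, 7.08 and 7.44 at the earlier stage and 12.55, 12.11, 12.38 and 11.94 at PF. In D. yakuba males they were 6.42, 6.63, 6.73 and 6.81 at the earlier stage and 12.28, 11.71, 12.49 and 11.65 at PF. The D. yakuba samples had the lowest earlier mean, 6.65 ± 0.17 (SD, n = 4), and lay among the others at PF. In Oregon-R females the levels were 7.68, 7.10, 8.15 and 6.10 at the earlier stage and 12.38, 12.44, 12.57 and 11.94 at PF. In Zimbabwe-109 females they were 6.89, 7.34, 7.26 and 6.53 at the earlier stage and 12.38, 12.14, 12.20 and 11.74 at PF. In D. simulans females they were 8.25, 8.15, 8.39 and 8.49 at the earlier stage and 13.52, 12.48, 13.04 and 12.94 at PF. The D. simulans females held the highest group mean at each stage, 8.32 ± 0.15 and 12.99 ± 0.43 (SD, n = 4).

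Between the lowest PF sample (11.63) and the highest earlier sample (8.92) of let-7 lay a gap that no sample of any set crossed. Stages that do not overlap in any of the 9 sets were found for 7 of 272 tested probes, or 2.57%. In net intensity let-7 ran from 4.14 to 602 at the earlier stage and from 1716 to 15043 at PF. The smallest stage change over the 9 sets was 4.43 for let-7, in Canton-S males, and the probe with the next largest such value was ame-miR-125 at 1.45. In that set the rise was 4.43 ± 0.24 (SE, 4 of 4 arrays, adjusted p = 1.16e-22 by limma), or 21.5-fold. In D. yakuba males it was 5.39 ± 0.24 (4 of 4 arrays, adjusted p = 7.63e-27 by limma), or 41.8-fold. Since 10 of the 36 earlier samples were below the detection limit, these folds rest partly on undetected samples and are compressed there by the offset. Without the 4 bright arrays the rise was 5.12 in Oregon-R and 5.14 in Zimbabwe-109 females, both called.

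The order of the 9 PF groups in let-7 ran from D. simulans females through Samarkand males to Canton-S males (11.89 ± 0.24), and the ranges of every pair of neighbours overlapped. Groups farther apart did not always overlap. D. simulans females (lowest sample 12.48) lay above all Zimbabwe-109 females (highest 12.38) and Canton-S males (highest 12.11). On the slide shared with 2 Zimbabwe-109 female arrays, both among the 4 bright arrays, they lay 1.02 higher. Those 2 arrays averaged 11.97 at PF, against 12.26 on Zimbabwe-109 female replicates 1 and 2. Between neighbours, the first step without overlap came between Canton-S males at PF and D. simulans females at the earlier stage, 3.57 lower. At PF the F test among the 4 D. melanogaster male strains gave F = 1.30 (adjusted p = 0.454 by limma), in a comparison that called 35.7% of the tested probes. For the stage change it gave F = 1.01 (adjusted p = 0.702), where 22.8% of probes were called. The tests of let-7 between strains thus passed the threshold for neither measure.

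Sexes and species also gave no call for let-7. Females minus males at PF came to -0.02 in Oregon-R (95% interval -0.66 to 0.61), to -0.21 in Zimbabwe-109 (-0.84 to 0.43) and to 0.75 in D. simulans (0.11 to 1.38, adjusted p = 0.118 by limma). At the reported scaling these intervals leave room for a difference of up to 1.38 in D. simulans and of up to 0.84 in size in the other strains. Without the 4 bright arrays the Oregon-R and Zimbabwe-109 values were -0.10 and -0.06. Against the mean of the 4 D. melanogaster male strains, the PF level was -0.01 in D. simulans males (-0.52 to 0.49) and -0.22 in D. yakuba males (-0.73 to 0.28). Without normalization between arrays the D. yakuba difference was 1.08 and the Oregon-R sex difference 1.26, both called, while the median of all tested probes moved to 0.58 and 0.73 in those comparisons. The let-7 values were 0.49 and 0.53 above these medians, but -0.02 and -0.06 from the medians of the authors' deposited table. The Zimbabwe-109 sex difference was 1.05 without normalization between arrays (adjusted p = 0.0573). In the authors' deposited table it was 1.09 (adjusted p = 0.162), or -4e-04 from the median. The direction of all 3 differences thus depends on the scaling. The stage change of D. yakuba males exceeded that of the D. melanogaster males by 0.66 (0.11 to 1.20, adjusted p = 0.0757 by limma). That call was made when Samarkand replicate 1 or 2 was left out, with adjusted p = 0.0459 and 0.0422 by limma.

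**Figure D2:**
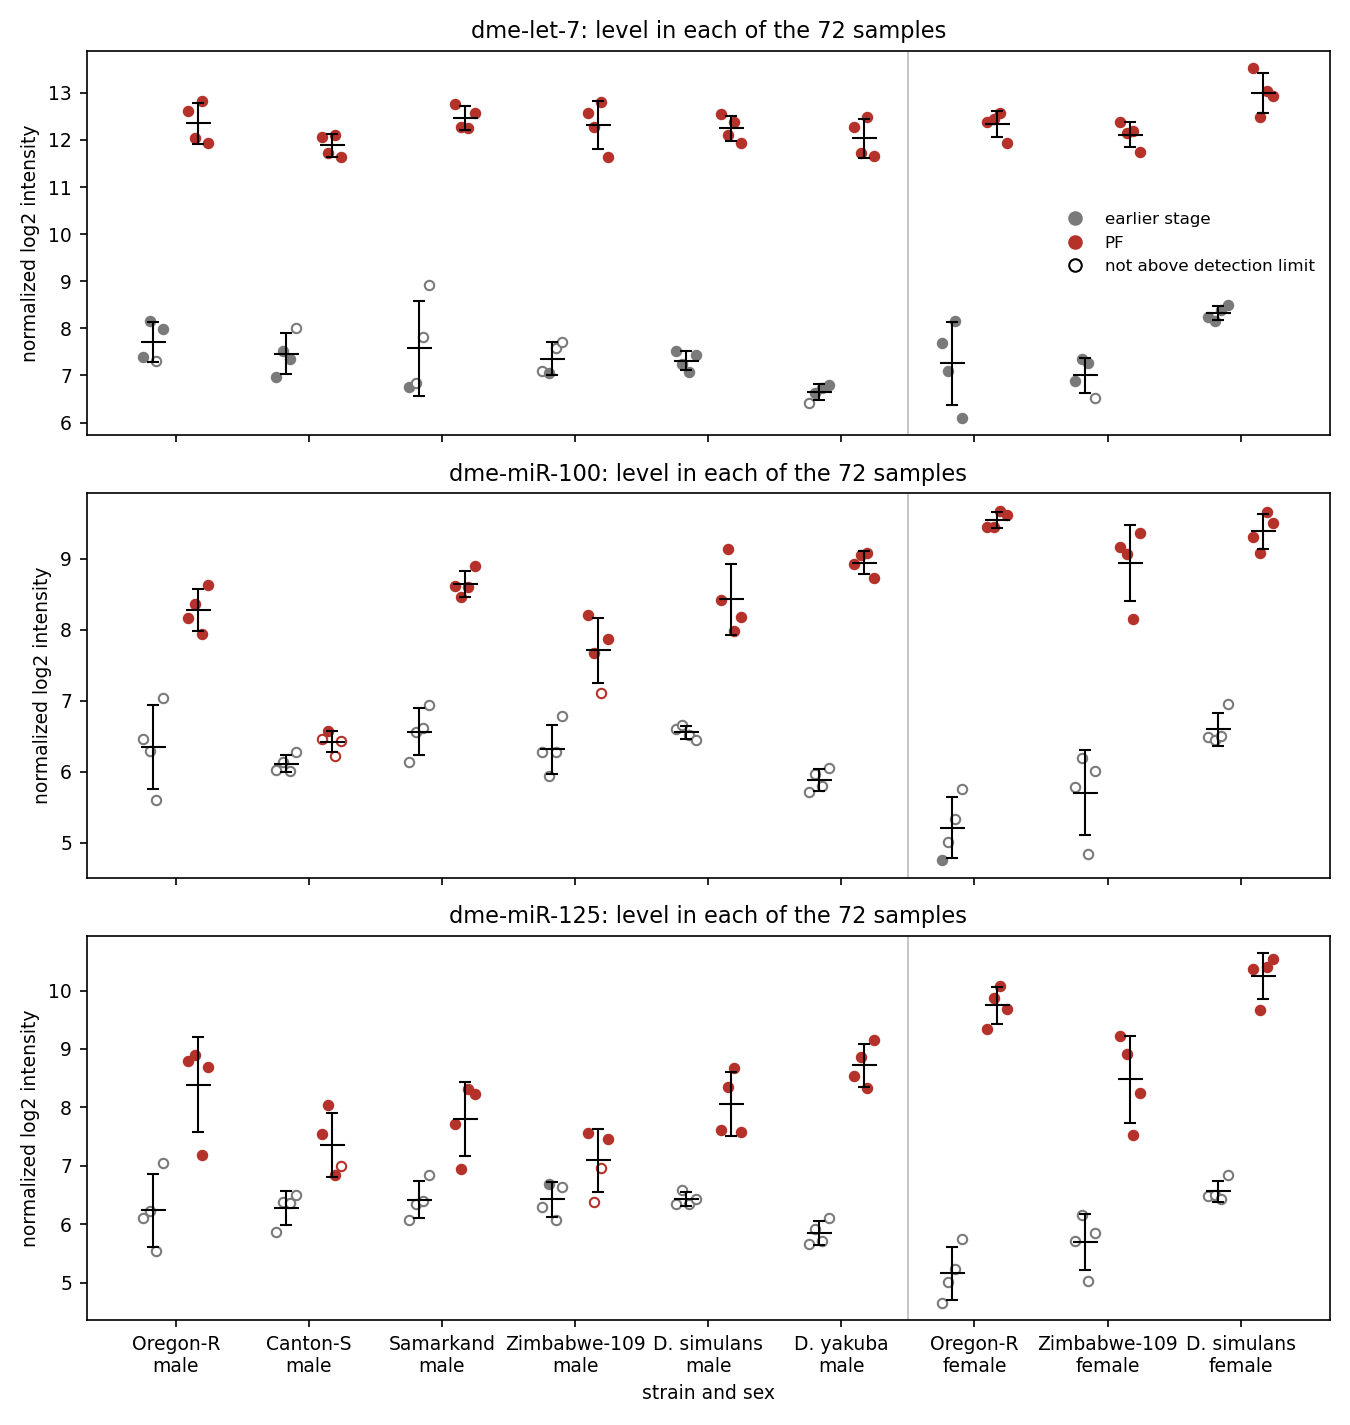
Normalized log2 intensity of dme-let-7, dme-miR-100 and dme-miR-125 in each of the 72 samples, by strain and sex (x axis); grey points are earlier samples, red points PF samples, open points lie below the detection limit, and the bars give mean ± SD (n = 4). PF levels of let-7 lie between 11.63 and 13.52 in every set, whereas miR-100 and miR-125 spread from 6.22 to 9.68 and from 6.37 to 10.54.

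miR-100 rose at PF in 8 of the 9 sets, with the largest change in Oregon-R females and no call in Canton-S males. Its levels in Oregon-R males were 6.46, 6.30, 5.61 and 7.04 at the earlier stage and 8.17, 8.37, 7.94 and 8.63 at PF. In Canton-S males they were 6.03, 6.14, 6.01 and 6.27 at the earlier stage and 6.47, 6.57, 6.22 and 6.43 at PF. In Samarkand males they were 6.14, 6.56, 6.62 and 6.94 at the earlier stage and 8.62, 8.46, 8.61 and 8.90 at PF. The Canton-S samples at PF lay below all PF samples of the other strains. In Zimbabwe-109 males the levels were 6.27, 5.94, 6.28 and 6.78 at the earlier stage and 8.20, 7.67, 7.11 and 7.87 at PF. In D. simulans males they were 6.61, 6.66, 6.52 and 6.45 at the earlier stage and 8.42, 9.13, 7.99 and 8.18 at PF. In D. yakuba males they were 5.71, 5.97, 5.80 and 6.05 at the earlier stage and 8.92, 9.05, 9.08 and 8.73 at PF. The D. yakuba males were the highest of the male sets at PF by group mean, 8.95 ± 0.16 (SD, n = 4). In Oregon-R females the levels were 4.76, 5.02, 5.33 and 5.75 at the earlier stage and 9.45, 9.44, 9.68 and 9.62 at PF. In Zimbabwe-109 females they were 5.78, 6.19, 4.85 and 6.01 at the earlier stage and 9.17, 9.06, 8.16 and 9.36 at PF. In D. simulans females they were 6.49, 6.45, 6.50 and 6.95 at the earlier stage and 9.30, 9.09, 9.66 and 9.51 at PF. In every set but Canton-S males the stages did not overlap, and in Canton-S males they did. The share of all tested probes without overlap in 8 sets was not counted, so how unusual this is cannot be said.

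The miR-100 probe passed the filter for testing only through PF groups, so its stage tests are not independent of that filter. The earlier values of miR-100 come almost wholly from spots at the level of empty ones, with net intensities of -20.36 to 28.8, and on the normalized scale they still spread from 4.76 to 7.04. Where no earlier sample was detected, the rise is therefore given as a bound. It was at least 2.66-fold in Oregon-R males and at least 2.65-fold in Samarkand males. In Zimbabwe-109 males it was at least 1.72-fold, which is not strictly a bound, since only 3 of 4 PF samples were detected. It was at least 3.29-fold in D. simulans males and at least 4.99-fold in D. yakuba males. In females it was at least 6.49-fold in Zimbabwe-109 and at least 6.35-fold in D. simulans. The fitted change was largest in Oregon-R females, where 1 of 4 earlier samples was detected, at 4.33 ± 0.18 (SE, 4 of 4 arrays, adjusted p = 1.31e-28 by limma). Without the 4 bright arrays it was 4.10 there and 3.13 in Zimbabwe-109 females. In Canton-S males it was 0.31 ± 0.18 (4 of 4 arrays, adjusted p = 0.164 by limma). With a smaller background offset of 16 the Canton-S change became 0.62 (adjusted p = 0.0116) and with plain background subtraction 3.61 (adjusted p = 3.74e-06), so this call depends on how near-background values are treated.

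miR-125 rose at PF in all 9 sets, least in Zimbabwe-109 males and most in Oregon-R females. In Oregon-R males its levels were 6.11, 6.23, 5.55 and 7.05 at the earlier stage and 8.79, 8.90, 7.18 and 8.69 at PF. In Canton-S males they were 5.86, 6.38, 6.36 and 6.50 at the earlier stage and 7.55, 8.04, 6.84 and 6.996 at PF. In Samarkand males they were 6.08, 6.35, 6.40 and 6.84 at the earlier stage and 7.71, 6.95, 8.32 and 8.22 at PF. Replicate 4 of the Oregon-R males stood apart at PF, at 7.18 against 8.69 in the nearest sample of its group. In Zimbabwe-109 males the levels were 6.30, 6.69, 6.07 and 6.63 at the earlier stage and 7.56, 6.37, 6.96 and 7.46 at PF. In D. simulans males they were 6.34, 6.59, 6.34 and 6.43 at the earlier stage and 7.61, 8.34, 8.68 and 7.58 at PF. In D. yakuba males they were 5.65, 5.91, 5.70 and 6.11 at the earlier stage and 8.53, 8.86, 8.32 and 9.15 at PF. The stages overlapped in Zimbabwe-109 males and in no other set, and here too the share over all tested probes was not counted. In Oregon-R females the levels were 4.65, 5.00, 5.22 and 5.75 at the earlier stage and 9.34, 9.88, 10.09 and 9.68 at PF. In Zimbabwe-109 females they were 5.71, 6.16, 5.03 and 5.85 at the earlier stage and 9.22, 8.91, 7.53 and 8.25 at PF. In D. simulans females they were 6.48, 6.49, 6.43 and 6.83 at the earlier stage and 10.37, 9.66, 10.41 and 10.54 at PF. The D. simulans and Oregon-R females led the order of PF group means at 10.24 ± 0.39 and 9.75 ± 0.32 (SD, n = 4), and the ranges of these groups overlapped. The next group, D. yakuba males at 8.72 ± 0.37, did not overlap with Oregon-R females.

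The fly's miR-125 probe also passed the filter only through PF groups, so its stage tests are not independent of it. As bounds, the rise of miR-125 was at least 2.90-fold in Oregon-R males and at least 1.47-fold in Samarkand males. In Canton-S males it was at least 1.58-fold, which is not strictly a bound, since only 3 of 4 PF samples were detected. It was at least 2.64-fold in D. simulans males and at least 4.25-fold in D. yakuba males. In females it was at least 16.9-fold in Oregon-R, at least 4.72-fold in Zimbabwe-109 and at least 11.6-fold in D. simulans. Without the 4 bright arrays the fitted change was 4.3985 in Oregon-R and 3.13 in Zimbabwe-109 females, both called. In Zimbabwe-109 males, where 1 earlier and 2 PF samples were detected, the fitted change was 0.67 ± 0.25 (SE, 3 of 4 arrays, adjusted p = 0.0194 by limma). That call was lost when replicate 1, 3 or 4 of this set was left out (adjusted p = 0.143, 0.0551 and 0.113). It was also lost without the array as a block (adjusted p = 0.0943) and with no filter on dim probes (adjusted p = 0.0839).

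The probe ame-miR-125, which differs from the fly's miR-125 by U1C, rose at PF in all 9 sets and without overlap of the stages in all 9. Stages without overlap in all 9 sets were found for 2.57% of tested probes. ame-miR-125 too passed the filter only through PF groups. In the 7 sets with no earlier sample detected, the rise was at least 1.98-fold, in Zimbabwe-109 males, to at least 5.04-fold, in Zimbabwe-109 females. In Oregon-R and D. simulans females, where 1 of 4 earlier samples was detected, the fitted change was 4.53 ± 0.25 and 3.77 ± 0.25. In Zimbabwe-109 males its PF samples were 8.21, 6.84, 8.39 and 8.26, all 4 of them detected, and the rise was called (4 of 4 arrays, adjusted p = 1.19e-06 by limma). In this set the fly's own miR-125 probe gave the smallest change of the 9.

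Called increases among the 9 tested members numbered 4 in Oregon-R males, 4 in Canton-S males, 6 in Samarkand males and 5 in Zimbabwe-109 males. They numbered 5 in D. simulans males, 8 in D. yakuba males, 9 in both Oregon-R and Zimbabwe-109 females and 7 in D. simulans females, and no member fell in any set. Of all tested probes, 31.6%, 18.4%, 27.9% and 40.4% were called higher at PF in Canton-S, Oregon-R, Samarkand and Zimbabwe-109 males. The shares were 32.4% in D. simulans males and 30.9% in D. yakuba males, and 41.9%, 40.8% and 24.3% in the females of Oregon-R, Zimbabwe-109 and D. simulans. The median stage change of the tested members ran from 0.13 in Oregon-R males to 3.03 in Oregon-R females, beside medians over all tested probes of 0.02 to 0.21. Several members share nearly the same sequence and are not independent measurements, and a probe that passed the filter only in samples where it was high had to differ. Among the tested members, all but dme-let-7 and dpu-miR-100 passed it only through PF groups.

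**Figure D3:**
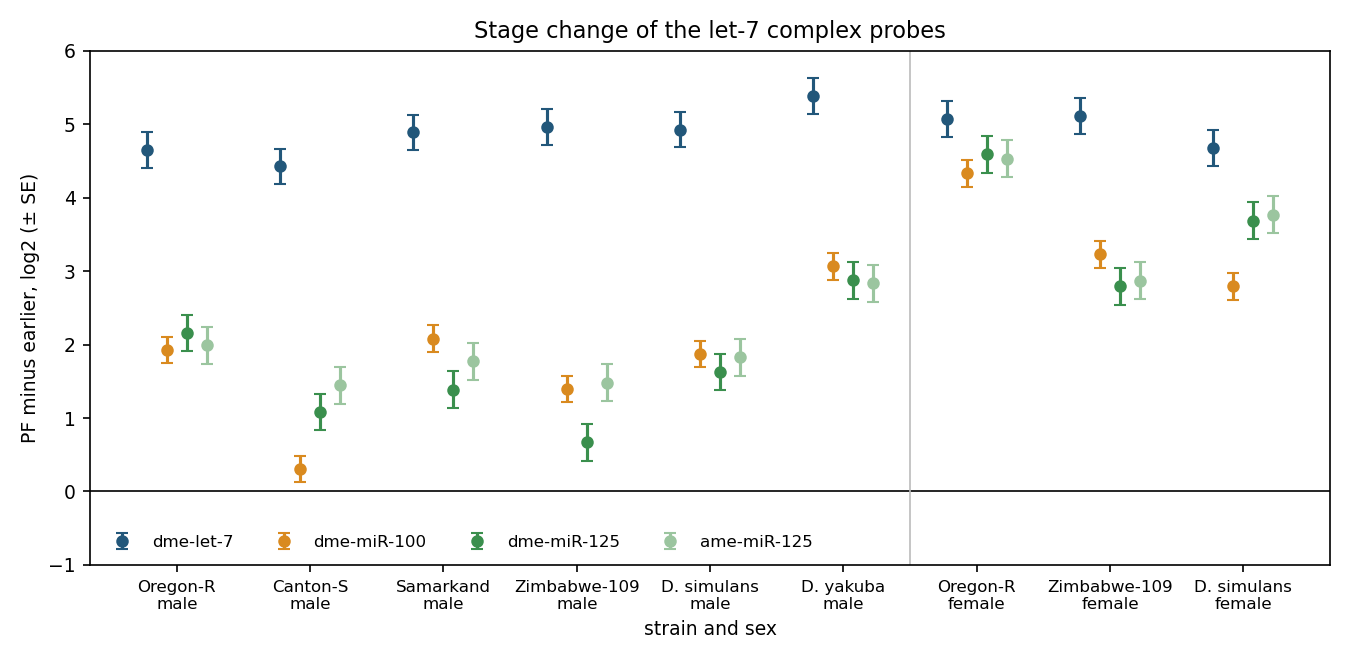
Stage change (PF minus earlier, log2) of dme-let-7, dme-miR-100, dme-miR-125 and ame-miR-125 in the 9 sets, each point the estimate of the fit over 4 arrays and the bars its SE. let-7 lies between 4.43 and 5.39 throughout, and the other probes lie higher in the 3 female sets than in the males of the same strain.

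At PF, females had more miR-100 than males of the same strain, in all 3 strains with both sexes, which lay on separate slides. The difference was 1.27 ± 0.24 in Oregon-R (SE, n = 4 a sex, adjusted p = 2.42e-05 by limma), where the sexes did not overlap and 36% of tested probes were called in either direction. It was 1.22 ± 0.24 in Zimbabwe-109 (adjusted p = 5.01e-05), where 34.6% of probes were called, and 0.96 ± 0.24 in D. simulans (adjusted p = 0.00191), where 15.1% were called. The Zimbabwe-109 and D. simulans sexes overlapped in 1 or more samples. In net intensity, before normalization, the Oregon-R samples at PF read 1858, 2029, 755 and 1803 in females and 128, 390, 118 and 316 in males. The first 2 female values are from bright arrays. Without normalization between arrays the median difference of all tested probes was 0.73 in this comparison, so the net values also hold a general difference in brightness. Calls were common in these comparisons, so a called sex difference is not particular to miR-100.

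miR-125 showed the same direction. Females exceeded males at PF by 1.36 ± 0.33 in Oregon-R (adjusted p = 0.000697 by limma), by 1.39 ± 0.33 in Zimbabwe-109 (adjusted p = 0.000684) and by 2.19 ± 0.33 in D. simulans (adjusted p = 3.30e-07). The sexes did not overlap in Oregon-R and D. simulans. The ame-miR-125 probe gave 1.61 ± 0.33, 0.65 ± 0.33 and 2.30 ± 0.33 in the same strains, of which the Zimbabwe-109 value missed the threshold (adjusted p = 0.123, 95% interval -0.01 to 1.30). let-7, from the same primary transcript, was called in none of these 3 comparisons, with 0.75 in D. simulans (95% interval 0.11 to 1.38). Whether it differed from miR-100 or miR-125 in this was not tested.

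These 6 sex differences of miR-100 and miR-125 at PF kept their sign, with 0.67 as the lowest value, over the 13 to 15 alternative settings and every left-out array. Without the 4 arrays with bright variant probes, miR-100 gave 1.37 in Oregon-R and 1.40 in Zimbabwe-109 and miR-125 gave 1.49 and 1.98, all called. With the other 4 arrays of these sets left out instead, the Zimbabwe-109 difference of miR-125 was 0.80 (adjusted p = 0.0834 by limma). That of the ame-miR-125 probe turned to -0.20 there, and it was 1.502 and called without the bright arrays. With the slide as a random block, the Oregon-R difference of miR-125 was 1.04 and no longer called (adjusted p = 0.119). Plain background subtraction ended the calls of miR-100 in all 3 strains and of miR-125 in Zimbabwe-109 and Oregon-R. In the authors' deposited series table none of the 6 was called. The testis miRNA miR-964 was detected in 32 of 48 male and 9 of 24 female samples and miR-974 in 5 of 48 and 1 of 24. The summed net intensity of these 2 testis markers at PF was 5.5 to 232 in males and -11.25 to 22.4 in females. At the earlier stage it was 8.71 to 541 in males and -13.45 to 16536 in females, or -13.45 to 119.6 in females without the 4 bright arrays. The ovary markers miR-989 and miR-318 were detected in 0 of 72 samples. The part of the testis markers in the sex differences was not tested.

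The stage change also differed between the sexes. For miR-100 it was larger in females by 2.40 ± 0.26 in Oregon-R (adjusted p = 1.08e-10 by limma), by 1.83 ± 0.26 in Zimbabwe-109 (adjusted p = 1.60e-07) and by 0.92 ± 0.26 in D. simulans (adjusted p = 0.0152). For miR-125 the differences were 2.43 ± 0.35, 2.12 ± 0.35 and 2.06 ± 0.35 in the same strains. Without the 4 bright arrays they were 2.18 and 1.73 for miR-100 and 2.24 and 2.46 for miR-125 in Oregon-R and Zimbabwe-109, all called. In the authors' deposited table none was called, and those of miR-100 in Oregon-R (-5e-04) and Zimbabwe-109 (-2.59) and of miR-125 in D. simulans (-0.41) turned in sign. Among all tested probes 22.8%, 11.8% and 5.88% were called in these comparisons. Each such difference is the sum of the PF difference and of an earlier difference turned in sign. For miR-100 the females lay 1.14 lower than the males at the earlier stage in Oregon-R and 0.61 lower in Zimbabwe-109, and the difference was 0.04 in D. simulans. For miR-125 the earlier values were -1.08, -0.73 and 0.13. These earlier parts rest on samples of which at most 1 of 8 was detected, whereas at PF all samples but some of the Zimbabwe-109 males were above background. The D. simulans call for miR-100 was lost when male replicate 1, 3 or 4 or female replicate 3 was left out (adjusted p = 0.0552, 0.0982, 0.0580 and 0.0835).

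The D. melanogaster male strains differed in miR-100. At PF the F test gave F = 34.2 (adjusted p = 5.08e-11 by limma), and for the stage change F = 19.7 (adjusted p = 1.64e-07), with the earlier samples of these strains all below the detection limit. In the authors' deposited table the PF test gave F = 1.48 and no call. The group means at PF fell from 8.65 ± 0.18 in Samarkand and 8.28 ± 0.30 in Oregon-R to 7.71 ± 0.46 in Zimbabwe-109 and 6.42 ± 0.15 in Canton-S (SD, n = 4). Neighbours in this order overlapped except Zimbabwe-109 and Canton-S, which did not. Of these strains only Samarkand and Zimbabwe-109 shared a slide, so strain and slide cannot be told apart for Canton-S and Oregon-R. D. simulans males lay on the slides of both, and averaged 8.78 at PF on the Oregon-R slide and 8.08 on the Canton-S slide. On the slide that held Canton-S and 2 D. simulans arrays, D. simulans lay 1.66 higher at PF with no overlap. On the slide that held Samarkand (2 arrays) and Zimbabwe-109 (3 arrays), Samarkand lay 1.09 higher with no overlap. let-7 on the slide of Canton-S and D. simulans differed by 0.28 with overlap.

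For miR-125 the strain tests gave F = 6.11 at PF (adjusted p = 0.00692 by limma) and F = 6.34 for the stage change (adjusted p = 0.00591), with 1 of the 16 earlier samples detected. The PF means ran from 8.39 ± 0.81 in Oregon-R through 7.80 ± 0.63 in Samarkand and 7.36 ± 0.55 in Canton-S to 7.09 ± 0.55 in Zimbabwe-109 (SD, n = 4), and neighbours in this order overlapped. Leaving out Oregon-R replicate 3 ended both calls (adjusted p = 0.0530 and 0.0611). The ame-miR-125 probe gave F = 1.28 at PF (adjusted p = 0.454) and F = 1.06 for the stage change (adjusted p = 0.678), so the 2 probes for miR-125 differ on this point. Strain and slide cannot be told apart here either for Canton-S and Oregon-R.

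Among males, D. yakuba stood above the mean of the 4 D. melanogaster strains. At PF the difference was 1.18 ± 0.19 for miR-100 (adjusted p = 1.01e-06 by limma) and 1.06 ± 0.26 for miR-125 (adjusted p = 0.00102), in a comparison that called 40.8% of probes. The ame-miR-125 probe gave 0.69 ± 0.26 (adjusted p = 0.0268). Their ranges overlapped those of the 16 D. melanogaster samples. On the slide shared with 2 Samarkand arrays, D. yakuba lay 0.41 higher in miR-100 and 1.39 higher in miR-125, both without overlap, and 0.49 lower in let-7 with overlap. The stage change of D. yakuba exceeded that of D. melanogaster by 1.64 ± 0.20 for miR-100 (adjusted p = 4.76e-09) and by 1.55 ± 0.28 for miR-125 (adjusted p = 3.55e-05), where 19.9% of probes were called. At the earlier stage neither was detected in the D. yakuba males, so the part of these values beyond the PF difference comes from undetected spots. In the authors' deposited table none of these 4 differences was called, and with plain background subtraction those at PF were not. Quantile normalization of all channels ended the calls of miR-125 at PF (0.61, adjusted p = 0.0907) and for the stage change (0.69, adjusted p = 0.0984).

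D. simulans males exceeded the mean of the D. melanogaster male strains at PF by 0.67 ± 0.19 in miR-100 (adjusted p = 0.00901 by limma). This comparison called 11.8% of probes, and the ranges overlapped. The D. simulans mean of 8.43 lay below Samarkand (8.65) and above Oregon-R (8.28), Zimbabwe-109 (7.71) and Canton-S (6.42). On the slide shared with Oregon-R males it lay 0.50 higher than these, with overlap. Without D. simulans male replicate 2 the difference from the mean of the strains was 0.41 (adjusted p = 0.236). The call was also lost with quantile normalization (0.44, adjusted p = 0.0715) and with the batch code as a random block (0.66, adjusted p = 0.0991). For miR-125 it was 0.39 ± 0.26 (adjusted p = 0.370, 95% interval -0.12 to 0.91). For the stage change 1.1% of probes were called, and no member was: miR-100 differed by 0.44 (0.04 to 0.85) and miR-125 by 0.31 (-0.25 to 0.87). The array design lists the D. simulans and D. yakuba names of all 3 miRNAs on the same probes as the D. melanogaster names, with 1 sequence for each.

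The variant probes of let-7 and miR-100 did not follow the fly sequences in every sample. At PF aae-let-7 read, in net intensity, 3349, 2754, 18.4 and 49.2 in Oregon-R females and 25.7, 172, 9432 and 2490 in Zimbabwe-109 females. In D. simulans females it read 30, 16.5, 27.4 and 23.2, and in D. yakuba males 158, 180, 121 and 54.5. The large values thus fall on the 4 arrays named above, while let-7 itself read 6763 to 9064 on Oregon-R replicates 3 and 4 and 13416 to 15043 on replicates 1 and 2. On those 4 arrays dpu-miR-100 was also bright at both stages. At PF it read 1802 to 2942 on Oregon-R replicates 1 and 2, against 217 to 727 on replicates 3 and 4. On Zimbabwe-109 replicates 3 and 4 it read 2037 to 6530 at PF, against 208 to 776 on replicates 1 and 2. By replicate, it read 1660, 404.5, -1.94 and -0.68 in the earlier Oregon-R females and 19.3, 21.9, 2374 and 1216 in the earlier Zimbabwe-109 females. In the same earlier samples the fly's miR-100 probe read 28.8, 5.81, 1.35 and 0.7 and 1.59, 0.8, 4.88 and 1.88. The sex difference of aae-let-7 in stage change was lost without those arrays (0.56 in Oregon-R, adjusted p = 0.0968 by limma, and 0.63 in Zimbabwe-109, adjusted p = 0.0796). The cause of the bright values was not tested.

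**Figure D4:**
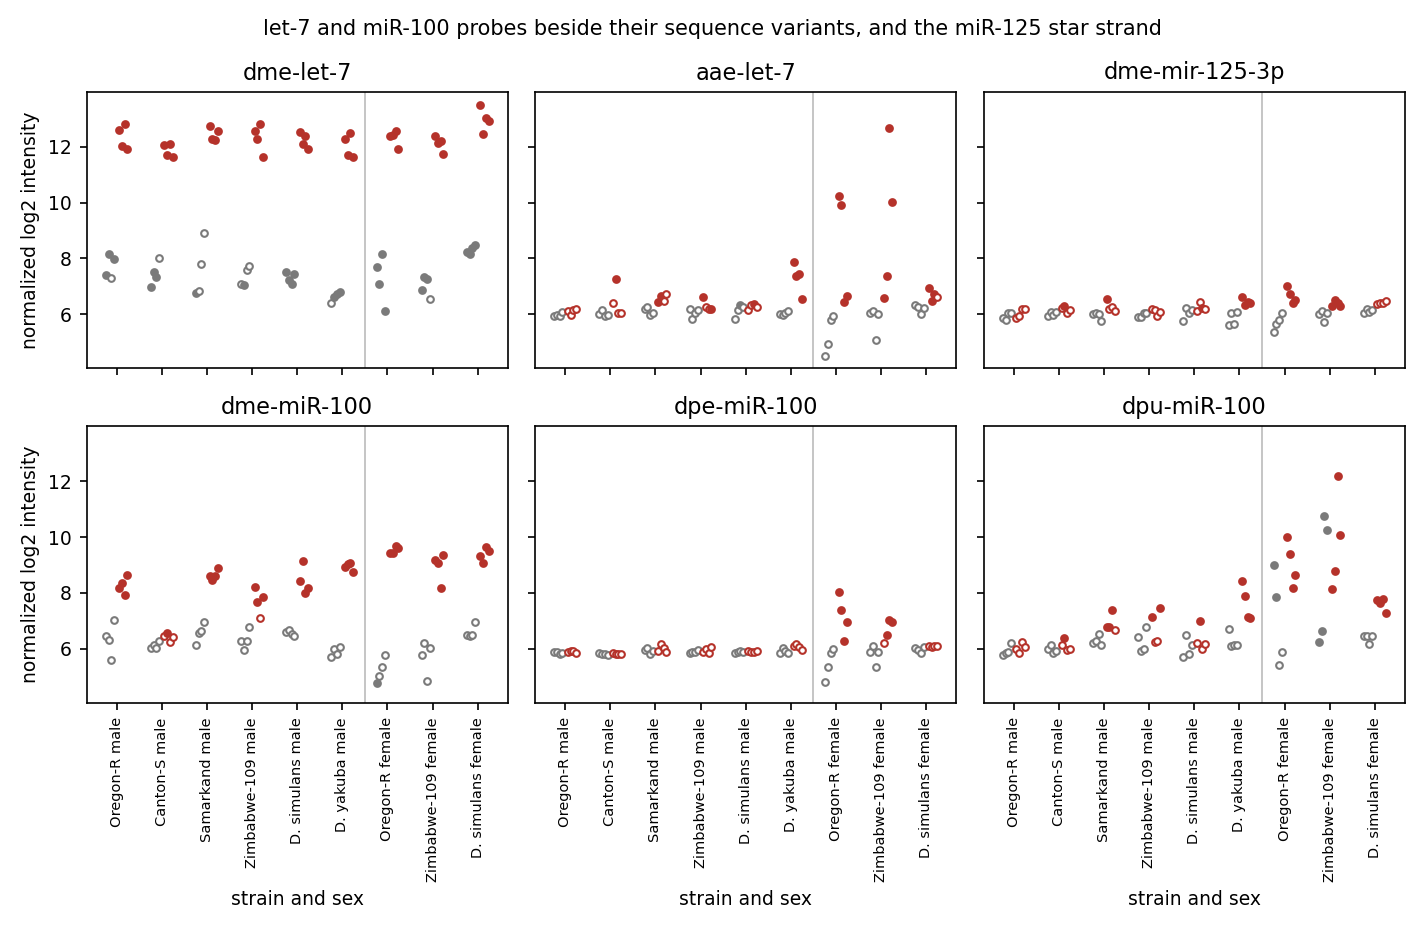
Normalized log2 intensity of dme-let-7, aae-let-7, dme-mir-125-3p, dme-miR-100, dpe-miR-100 and dpu-miR-100 by strain and sex; each point is 1 sample, grey for the earlier stage and red for PF, and open points lie below the detection limit. The 4 highest aae-let-7 points, up to 12.67, belong to Oregon-R females 1 and 2 and Zimbabwe-109 females 3 and 4 at PF.

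The D. persimilis probe dpe-miR-100 was detected at PF in 4 of 4 Oregon-R and 3 of 4 Zimbabwe-109 females and in no other group. Its called rises, at least 2.78-fold and at least 1.30-fold, were in those 2 sets. The second is not strictly a bound, since an undetected PF sample is in its mean. The probe passed the filter only through these 2 groups, so it had to differ there. Without the 4 bright arrays the fitted changes were 0.72 in Oregon-R and 0.36 in Zimbabwe-109 females. The aae-miR-100 probe was detected in 4 samples, the 4 bright arrays at PF, and was not tested. Among males dpu-miR-100 was called only in D. yakuba, at least 2.01-fold higher at PF. It was also called in the 3 female sets, at least 1.87-fold higher in D. simulans (adjusted p = 0.0165 by limma). Without the 4 bright arrays it rose by 2.76 in Oregon-R and 2.01 in Zimbabwe-109 females, both called. Females then exceeded males at PF by 2.38 and 1.67, both called, while the D. simulans difference of 1.28 was not.

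The opposite strand of the miR-125 hairpin was near the detection limit. The sequences of its D. melanogaster and Culex quinquefasciatus (cqu) probes are printed to show that both read the same strand, the second with 2 more bases at its 5′ end, in capitals.
dme-mir-125-3p: acaaguuuugaucuccgguau
cqu-miR-125*: UCacaaguuuugaucuccgguau
At PF dme-mir-125-3p was above background in 4 of 4 samples of Oregon-R females, Zimbabwe-109 females and D. yakuba males, where its change was 0.96 ± 0.10, 0.39 ± 0.10 and 0.60 ± 0.10. It was also called in Samarkand males (0.31, 1 of 4 detected at PF) and D. simulans females (0.30, 0 of 4 detected). Its net intensity at PF ran from -4.6 to 106.3, while at the earlier stage it was detected in no sample. The cqu-miR-125* probe had its largest change in Oregon-R females too, 1.03 ± 0.09 (4 of 4 arrays, adjusted p = 7.29e-15 by limma). Both probes passed the filter only through PF samples of Oregon-R females, Zimbabwe-109 females and D. yakuba males, so they had to differ there. Without the 4 bright arrays the Oregon-R female change was 0.61 for cqu-miR-125* and 0.55 for dme-mir-125-3p. The second value is below that of D. yakuba males. In Zimbabwe-109 females the changes were then 0.38 and 0.33. The star probes of let-7 (cqu-let-7*, bmo-let-7*, the second from Bombyx mori) and of miR-100 (cqu-miR-100*) were detected in 0 of 72 samples.

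Over the 18 group means, let-7 correlated with miR-100 at r = 0.88 and with miR-125 at r = 0.87, and miR-100 with miR-125 at r = 0.95. These coefficients describe 18 points that share arrays and normalization and that fall into 2 stages. The tested probes most like let-7 by this measure were dme-miR-276a (r = 0.94), aae-miR-9b (0.91) and aae-miR-276 (0.90). Those most like miR-100 were dme-miR-306 (0.88), dme-mir-2b-2-5p (0.83) and dme-miR-276a (0.82), and those most like miR-125 were dme-miR-306 (0.85), dme-mir-2a-2-5p (0.81) and cqu-miR-988 (0.81). Likeness here is of pattern only: dme-miR-276a rose by 0.62 to 1.30 over the sets, far less than let-7.

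A list of other miRNAs linked to steroid hormone signalling or developmental timing in flies (miR-34, miR-14, miR-8, miR-281, miR-965 and bantam) had 7 tested probes. None of these probes was called higher in more than 1 set. The count of list probes called higher at PF was 0 in 7 sets and 1 in both Zimbabwe-109 and D. yakuba males. Called decreases numbered 2 in 6 sets, 3 in D. yakuba males and 4 in both Oregon-R and Zimbabwe-109 females. In Canton-S, Oregon-R, Samarkand and Zimbabwe-109 males 15.4%, 13.6%, 14% and 16.5% of all tested probes were called lower. The shares were 12.5% and 15.4% in D. simulans and D. yakuba males, and 14%, 25.4% and 22.4% in D. simulans, Oregon-R and Zimbabwe-109 females. miR-34, which is known for roles in ageing and neuronal maintenance in the fly, fell in all 9 sets, with changes from -1.12 in D. simulans males to -2.50 in D. yakuba males (± 0.18, adjusted p = 7.77e-18 by limma). The probe dme-miR-281-2*, from the strand opposite to the guide, fell in all 9 sets, with changes of -0.97 to -0.58, and median centring within arrays turned the Zimbabwe-109 male value to 0.10. The guide probe dme-miR-281 was called lower in 2 sets and dme-miR-281-1* in 3. bantam, which promotes growth, was called only in D. yakuba males (0.37 ± 0.16, adjusted p = 0.0461), and miR-8, which acts in fat body growth control, only in Zimbabwe-109 males (0.65 ± 0.18, adjusted p = 0.00176). miR-14, which acts in ecdysone signalling and autophagy, had changes of -0.42 to 0.06 with an SE of 0.62, and it was detected in 8 of 36 earlier and 10 of 36 PF samples. On the 4 bright arrays it read 693 to 5171 at the earlier stage and 754 to 8962 at PF in net intensity, against -1.83 to 24.2 and -0.03 to 11.8 on the other arrays of these 2 female sets. miR-965 was detected in 2 of 36 earlier samples and was not tested. The list median lay between -0.59 and -0.06 in the 9 sets.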

How the data were processed

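MicroRNA was measured on 36 two-colour arrays with 72 samples. Labelling was done by LC Sciences, per the labels' protocols. Each deposited scanner file holds, per the file headers, 1 linear intensity for each of 5022 spots and no local background. Scanner and software are not named in the sources used here. A second deposited table holds intensity values processed by the authors, of unknown scaling and centring, and was used as an alternative alone.

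From the scanner intensities, the 689 empty spots of each array gave the background for limma's normexp (offset 50), followed by loess within arrays, Aquantile normalization between arrays and a median over the 3 spots per probe. The medians of the empty spots ranged from 29.8 to 136. The test covered 272 of 1339 probes, those that 3 or more samples of any 1 group showed above the detection limit, and 8 probes for 2S rRNA were left out. A model with 18 group means, dye as covariate and the array as random block was fitted in R 4.3.3 (limma 3.58.1, statmod 1.5.0). The Benjamini-Hochberg method was applied within each contrast over all tested probes at 0.05, and every adjusted p in the text is limma's. It was tested on simulated data first. Where no sample of the dim group was detected, a fold is a bound, "at least", and sets the bright mean against a mean over dim samples of the probe's own signal or, where higher, the lowest signal detected there. The bright mean holds all samples of its group, so an undetected one makes the bound less strict.

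The array pairs samples by design: over tested probes, deviations from the group mean showed a correlation of -0.22 to 0.74 between the samples of an array, over 0.1 for 27 of the 36 arrays. The fit estimated a correlation of 0.411. Median correlations between replicates ran from 0.898 to 0.992, and 0 pairs of samples held identical values. p-values measure the spread between these pools, and the number of arrays limits the precision.

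Named probes are all members, the 3 other tested probes whose 18 group means correlate most with each fly guide strand, and the tested probes of the list of hormone and timing miRNAs. The members, lists and tests were chosen with earlier results of these data known. The alternatives concern background, normalization, the authors' table, filter, detection, spot averaging, blocks, dye and left-out arrays. Of these, the batch code as a block (a code that a few arrays share in the file headers, of unstated meaning) and the settings that leave out 4 female arrays were chosen after seeing the data. Sequences are those the array files list. No genome build is named by the files, so no coordinates are given.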

Additional observations from a re-analysis of the deposited data

Results flagged for a closer look

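In 3 of 54 groups of 4 samples, 1 sample lay farther from the others than Dixon's test allows at the 95% level, which chance gives in about 1 in 20 groups. For miR-125 at PF, replicate 4 of the Oregon-R males had a level of 7.18, against 8.69 in the nearest sample. In the earlier D. simulans females, replicate 4 was high for both miR-100 (6.95, nearest 6.50) and miR-125 (6.83, nearest 6.49), and neither probe was detected in these samples.

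By the interaction test of limma, the stage change of miR-100 was larger in females than in males by 2.40 in Oregon-R, 1.83 in Zimbabwe-109 and 0.92 in D. simulans. For miR-125 the same differences were 2.43, 2.12 and 2.06. In the authors' deposited table none was called, and 3 of the 6 turned in sign, to -5e-04 and -2.59 for miR-100 in Oregon-R and Zimbabwe-109 and to -0.41 for miR-125 in D. simulans. The stage change in D. yakuba males exceeded that of the D. melanogaster males by 1.64 for miR-100 and 1.55 for miR-125. Among the 4 D. melanogaster male strains the F statistic of the stage change was 19.7 for miR-100 and 6.34 for miR-125. Nearly all earlier samples behind these values were below the detection limit.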

How the results depend on the processing

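For let-7, miR-100 and miR-125, 63 results were recomputed under 16 alternatives, and 753 of 810 values kept their side of the threshold. Of these, 729 also kept their sign (F tests have none) and 24 that were not called turned in sign. 47 lost their call, 4 gained one, and 6 turned in sign with a call on at least 1 side. Of 588 values with an array left out, 576 kept their side, 10 of them, not called, with the sign turned. The stage changes of let-7 stayed called in every set, between 4.27 and 7.26. Where a cause is not named, it was not tested. Without normalization between arrays, the median of all tested probes moved to 0.73 (Oregon-R) and 0.60 (Zimbabwe-109) in the sex comparisons at PF and to 0.58 for D. yakuba at PF, and in the authors' deposited table to 1.30, 1.09 and 1.28. In those sex comparisons 97.5% and 95.8% of calls were then higher in females, against 71.4% and 55.3% as reported, and for D. yakuba 95.4% were higher, against 61.3%. For let-7 this turned the D. yakuba difference at PF to 1.08 (1.26 in the authors' table) and the sex differences to 1.26 in Oregon-R and, with no call, 1.05 in Zimbabwe-109, and it ended the miR-100 sex call at PF in D. simulans (0.75).

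In the authors' deposited table, the sex differences in stage change were -5e-04, -2.59 and 2.51 for miR-100 and 0.15, 1.04 and -0.41 for miR-125 (Oregon-R first, D. simulans last), with no call. Those at PF were 2.77, 2.09 and 0.99, and 2.79, 1.96 and 2.21, with no call. The D. yakuba differences, 3.57 and 2.41 for miR-100 (stage change, PF) and 4.21 and 2.17 for miR-125, and that of D. simulans at PF (1.05, miR-100) were not called either. Nor were the strain tests of miR-100 at PF (F = 1.48) and of miR-125 (F = 2.39 for the stage change, 0.22 at PF).

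With plain background subtraction, calls were lost for the sex difference in stage change of miR-100 in Zimbabwe-109 (1.89) and D. simulans (2.04) and of miR-125 in Oregon-R (2.53) and D. simulans (2.10). At PF they were lost for miR-100 in Oregon-R (1.42), D. simulans (1.04) and Zimbabwe-109 (1.08) and for miR-125 in Oregon-R (1.42) and Zimbabwe-109 (1.84). The PF calls of miR-100 in D. simulans (1.26) and D. yakuba (1.38) males, of miR-125 in D. yakuba (1.20), and its strain tests (F = 3.26 and 1.88) were lost too. This setting called the strain test of let-7 (F = 5.89) and the Canton-S change of miR-100 (3.61), as did an offset of 16 for the latter (0.62). ame-miR-125 turned in sign between sexes in Oregon-R (-0.16) and D. simulans (-0.95), and in the authors' table to -1.82 and -2.60.

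Median centring within arrays ended the call of miR-100 between D. simulans sexes (0.75) and the strain tests of miR-125 (F = 1.85 and 3.57), and turned dme-miR-281-2* in Zimbabwe-109 males to 0.10, while the authors' table turned dme-miR-8 there to -0.34. Quantile normalization ended the PF call of miR-100 in D. simulans (0.44) and both of miR-125 in D. yakuba (0.69 and 0.61). The mean of spots called the D. yakuba stage difference of let-7 (0.74). Slide as a block ended the Oregon-R sex call of miR-125 at PF (1.04), and batch code as a block that of miR-100 in D. simulans males (0.66) and the strain test of miR-125 at PF (F = 3.43). Leaving out the 4 female arrays without bright variant probes ended the Zimbabwe-109 sex call of miR-125 at PF (0.80).

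With no replicate block, the pairing of samples by array being dropped, 3 calls were lost: miR-100 between D. simulans sexes (0.92), miR-125 in Zimbabwe-109 males (0.67) and its strain test of the stage change (F = 3.68). The array as a fixed replicate block, fitted for the 15 stage results of each of these 3 miRNAs, changed no call among them. With no filter the first 2 of these calls were lost as well (0.92 and 0.67).

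Leaving out 1 array gave 0.57 to 0.75 for the D. yakuba stage difference of let-7, 0.41 to 0.83 for miR-100 in D. simulans males at PF and 0.75 to 1.15 for its sex difference there. For miR-125 it gave 0.52 to 0.95 in Zimbabwe-109 males, F = 4.02 to 8.47 for the stage change among strains and F = 3.92 to 11.0045 at PF.

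Counts of called probes moved by over 1.5 times. The 62, 32 and 16 probes called between sexes in stage change ranged over 8 to 73, 4 to 51 and 0 to 17 (the 0, in the authors' table by limma, with 27 at an unadjusted p under 0.05). The 98, 94 and 41 at PF ranged over 69 to 199, 53 to 120 and 16 to 63. For D. simulans the 3 and 32 (stage change, PF) ranged over 2 to 10 and 13 to 35, and for D. yakuba the 54 and 111 over 13 to 59 and 59 to 153. Among strains the 62 and 97 ranged over 37 to 67 and 51 to 99. The stage counts of 87 (Oregon-R males), 114 (Samarkand males), 183 and 172 (females of Oregon-R and Zimbabwe-109) reached 47, 72, 112 and 89 at the lowest, and the 66 higher and 38 lower probes of D. simulans females came to 67 together. In the authors' table lower calls outnumbered higher ones in Oregon-R males (25 higher, 41 lower) and in females of Oregon-R (51, 61), Zimbabwe-109 (32, 57) and D. simulans (25, 50). Near the empty spots, where miR-100 and miR-125 lie at the earlier stage, signal over background limits all fitted changes.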
